A study of Mus musculus with 17 samples.

Results

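Htra1, Itgad, Gm15417, Micall1, Phyhd1, Eml1 and Scrg1 are 7 of the 23284 genes in a merged single-cell count table of the mouse hypothalamus. They were chosen by their counts in mature oligodendrocytes, the cells that the authors' annotation names MO, which differed with feeding state in an earlier fit of the same counts that held the batch constant. Their MO values by feeding state therefore describe how they were chosen and are given without a test. All 7 were found in the table. The cells came from B6D2F1 hybrid mice (a C57BL6 mother and a DBA2 father), of which 5 were normally fed and 3 had no food for 24 hours. Age is not given in the sources used here. The labels name no transgene. Single cells of the dissected hypothalamus were run by Drop-seq, a droplet method in which every captured polyadenylated RNA receives the barcode of its droplet and a random tag of its own (a unique molecular identifier, UMI), so that 1 UMI counts 1 captured RNA molecule.

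Oligodendrocytes wrap axons in myelin. They arise from dividing precursors (POPC and OPC in the annotation) through an immature stage (IMO), and the names OPC, IMO and MO follow that order. Htra1 encodes a secreted serine protease that cuts matrix proteins and dampens TGF-beta signalling, and loss of its human counterpart causes an inherited disease of small brain vessels with white matter damage. Itgad encodes the integrin alpha D chain, known from leukocytes, where it pairs with the beta chain encoded by Itgb2. Scrg1 encodes a small secreted protein first noticed for its rise in scrapie-infected brain. Phyhd1 encodes a dioxygenase related to the enzyme that starts the breakdown of phytanic acid. Gm15417 is a predicted gene with no protein product in GENCODE M21, which types it as antisense. Micall1 encodes an adaptor of recycling endosomes that binds small Rab GTPases. Eml1 encodes a microtubule-binding protein needed for the normal placement of neurons in the developing cortex.

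The 8 mice gave 17 libraries in 5 batches. Both states were run side by side in batch 1, with normal replicate 3 and food-deprived replicate 1, and in batch 2, with normal replicate 4 and food-deprived replicate 2. Only 1 state was run in each of the others: normal replicates 1 and 2 in batch 0, normal replicate 5 in batch 3 and food-deprived replicate 3 in batch 4. In all, 14276 annotated cells with 46904254 UMIs could be assigned to a library. A further 161 could not, since their barcode stood in 2 libraries that share batch and state. Counting over all libraries, 120 barcode sequences occurred in more than 1 library. MO cells numbered 3501. They ranged from 36 cells with 79326 UMIs (normal replicate 2) and 37 cells with 74863 UMIs (normal replicate 1) to 1100 cells with 2860046 UMIs (food-deprived replicate 1), so the values of these 2 normal mice and of food-deprived replicate 3 (61 cells, 135590 UMIs) carry the largest counting error. MO made up 4.74% of the cells of food-deprived replicate 3 and 17.7% to 30.2% of those of the other mice. In 9 of the libraries Gapdh stood at 4.36 to 8.53 CPM (UMIs of a gene per 1000000 UMIs in all), and in the other 8 at 151 to 811 CPM. All libraries of batch 1 except 1 were of the low-Gapdh kind, batch 2 held both kinds, and batches 0, 3 and 4 held only the high-Gapdh kind. The MO label was checked on 2 myelin proteins. Mog stood at 2697 CPM in MO, 355.2 CPM in IMO and at most 142.3 CPM in the other glial and vascular clusters, and Mag at 6586, 2152 and at most 351.5 CPM.

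RefSeq start sites (build GRCm38.p6) were listed for 5 of the 7 genes, all except Itgad and Scrg1. The 250 bases before the most upstream start of these 5 genes are described because the genes were chosen together for their difference in MO. None of the 5 windows held the glucocorticoid receptor half-site AGAACA, the FoxO motif GTAAACA or the E-box CACGTG, on either strand, so no motif overlapped another. Over the windows of the 27025 genes listed, 16.1%, 3.06% and 6.04% held these letters. The windows of Micall1 (75.2% G or C, 28 CG dinucleotides) and Htra1 (64.8%, 22 CG) were richer in CG than the median window (52.0%, 6 CG), and that of Phyhd1 held 1 CG at 57.2% G or C. Gm15417 had 9 CG at 59.2% and Eml1 had 4 CG at 56.4%. The stretches that no GENCODE M21 exon touches are shown for Htra1 (chr7:130935953-130936110, plus strand), which was higher after food deprivation, for Micall1 (chr15:79108733-79108897, plus strand), which was lower, and for Phyhd1 (chr2:30265953-30266202, plus strand), which had the largest fitted fold change. CG dinucleotides are in capitals, 5′ to 3′.
Htra1: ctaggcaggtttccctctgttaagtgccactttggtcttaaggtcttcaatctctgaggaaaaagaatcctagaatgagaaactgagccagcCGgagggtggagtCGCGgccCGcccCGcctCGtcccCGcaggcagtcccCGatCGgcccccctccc
Micall1: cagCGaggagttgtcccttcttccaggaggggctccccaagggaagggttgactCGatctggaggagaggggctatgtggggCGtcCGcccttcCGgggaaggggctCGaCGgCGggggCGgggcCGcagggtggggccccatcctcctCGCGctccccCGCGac
Phyhd1: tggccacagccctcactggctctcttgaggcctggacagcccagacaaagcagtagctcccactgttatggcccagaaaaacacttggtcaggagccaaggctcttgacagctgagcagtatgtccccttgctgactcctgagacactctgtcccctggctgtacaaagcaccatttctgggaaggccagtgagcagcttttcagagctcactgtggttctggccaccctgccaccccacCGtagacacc
The Htra1 and Micall1 stretches end 92 and 85 bases before the start, and that of Phyhd1 ends at it. They hold 9 of the 22 CG of the Htra1 window and 14 of the 28 CG of the Micall1 window. All capitals of the Htra1 stretch and most of those of the Micall1 stretch lie in the part of the stretch nearest the start. The Phyhd1 stretch has a single CG, also close to the start.

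Across the deposited classes the 7 genes fell into 2 patterns. Levels are CPM of the UMIs summed per mouse and class, as mean ± SD over those mice in which the class had 20 cells or more, and they are compared between classes within a gene, not between genes. MO was the highest class for Itgad, Micall1, Eml1 and Gm15417, and another class was highest for Htra1, Scrg1 and Phyhd1. Clusters were made from the same counts, so these levels are a description.

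Itgad was close to restricted to MO. Of its 812 UMIs, 771 (94.95%) came from MO, which held 19.4% of all UMIs. It averaged 83.6 ± 56.8 CPM in MO (n = 8), 6.4 ± 6.5 CPM in IMO (n = 5) and 0.2 CPM in OPC (n = 7), and it was at 0 in 28 of 34 neuronal clusters. Macrophages (Macro) stood at 15.5 ± 26.8 CPM (n = 3) and microglia (Micro) at 1.2 ± 2.8 CPM (n = 5). Its known partner Itgb2, singled out after its values were seen, had 5 UMIs in all MO cells (0.549 CPM) and 220 UMIs (164.5 CPM) in Micro, so the beta chain was near 0 in the cells with the most Itgad.

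Micall1 averaged 118.1 ± 39.1 CPM in MO (n = 8), above ependymal cells (38.6 ± 14.1 CPM, n = 6). MO held 63.4% of its UMIs. Eml1 averaged 129.5 ± 57.3 CPM in MO (n = 8) and 70.2 ± 35.2 CPM in IMO (n = 5), 2 levels whose SDs overlap, and 23.1 CPM in OPC (n = 7). Gm15417 averaged 66.8 ± 34.1 CPM in MO (n = 8) and 51.2 ± 25.2 CPM in astrocytes (Astro, n = 6), which do not differ beyond their spread, and 3.1 CPM in IMO (n = 5).

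Htra1 was highest in Astro at 1102 ± 491 CPM (n = 6). OPC followed at 343.0 ± 92.0 CPM (n = 7) and MO at 297.8 ± 147 CPM (n = 8), 2 levels within each other's spread, while IMO between them in the lineage stood at 54.5 CPM (n = 5). Scrg1 was highest in OPC (1155 ± 153 CPM, n = 7) and IMO (1016 ± 166 CPM, n = 5), again within each other's spread, then in Astro (393.2 ± 111 CPM, n = 6), and MO stood at 103.9 ± 67.8 CPM (n = 8). Phyhd1 was highest in Micro (247.0 ± 31.2 CPM, n = 5), then Astro (147.0 ± 64.4 CPM, n = 6) and tanycytes, the glia lining the third ventricle (Tany, 49.8 ± 23.7 CPM, n = 6), and MO stood at 19.8 ± 27.8 CPM (n = 8). No Phyhd1 UMI was counted in 149 IMO cells, where 3 UMIs would be 4.89 CPM.

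**Figure D1:**
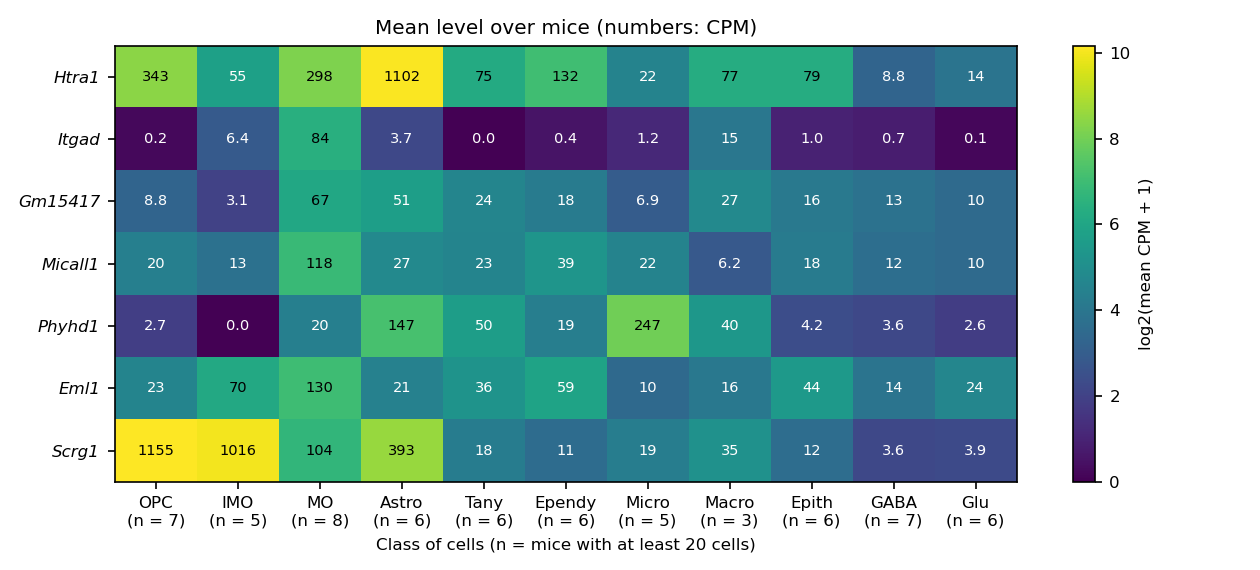
Mean level of each gene (rows) in the deposited classes (columns), with the mean CPM over mice printed in each cell and log2(mean CPM + 1) as colour. MO is the highest column for Itgad (84 CPM), Gm15417, Micall1 and Eml1, Astro for Htra1, OPC for Scrg1 and Micro for Phyhd1.

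In MO, 5 of the 7 genes were higher and 2 were lower after food deprivation, by the sign of the edgeR log2 fold change with feeding state as the only term. The edgeR fit that held the batch constant called 0.201% of the 7977 genes tested at an adjusted p of at most 0.05 (0.163% higher and 0.0376% lower). All 7 are among the called genes because they were chosen in that fit, so their calls are no result. With state as the only term edgeR called 0 of the 7977 genes, 315 had an unadjusted p under 0.05, and DESeq2 called 1. The CPM of each mouse are given first, normal replicates 1 to 5 and then food-deprived replicates 1 to 3.

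Htra1 stood at 253.8, 302.5, 185.3, 198.1 and 130.9 CPM in the normal mice and at 410.8, 591.4 and 309.8 CPM in the food-deprived mice. Every food-deprived mouse was above every normal mouse, although normal replicate 2 and food-deprived replicate 3, both with few MO cells, lay close together. The log2 fold change was 1.15 ± 0.25 (SE). Such a separation with the food-deprived mice higher held for 2.14% of the genes tested, and with them lower for 1.22%. Within batch 1 the food-deprived mouse stood 2.22-fold above the normal one and within batch 2 it stood 2.99-fold above it (log2 1.15 and 1.58). The 7 food-deprived libraries of these batches ran from 368.8 to 642.3 CPM and the 5 normal libraries from 168.7 to 218.2 CPM. They come from 4 mice, 1 per state and batch, so the spread of libraries here and below is that within a mouse. Libraries with the food-deprived mouse higher were separate for 6.17% of the genes tested in batch 1 and 13.7% in batch 2, and with it lower for 6.98% and 12.8%.

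Itgad stood at 53.4, 113.5, 33.5, 49.5 and 24.3 CPM in the normal mice and at 65.4, 174.0 and 154.9 CPM in the food-deprived mice (log2 1.57 ± 0.36 SE). The groups overlapped through normal replicate 2, whose 113.5 CPM rest on 9 UMIs. The step was 0.96 on the log2 scale in batch 1 and 1.81 in batch 2, and the libraries of the 2 states were separate in both batches.

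Scrg1, which is low in MO next to its precursors, stood at 160.3, 113.5, 41.2, 51.2 and 16.8 CPM in the normal mice and at 79.4, 162.7 and 206.5 CPM in the food-deprived mice (log2 1.44 ± 0.42 SE). The 2 normal mice of batch 0, with 12 and 9 UMIs, lay among the food-deprived mice, and the other 3 normal mice lay below all of them. The log2 difference was 0.94 in batch 1, where the libraries of the 2 states overlapped, and 1.67 in batch 2, where they did not.

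Gm15417 stood at 106.9, 63.0, 39.0, 30.5 and 24.3 CPM in the normal mice and at 73.8, 115.4 and 81.1 CPM in the food-deprived mice (log2 1.30 ± 0.28 SE). Normal replicate 1, with 8 UMIs, was the only normal mouse to reach the food-deprived values. Within batch 1 the difference was 0.92 on the log2 scale, with libraries that overlapped, and within batch 2 it was 1.92, with libraries that did not.

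Phyhd1 stood at 0, 75.6, 3.85, 4.13 and 1.87 CPM in the normal mice and at 29.4, 43.9 and 0 CPM in the food-deprived mice (log2 2.62 ± 0.60 SE). The groups overlapped at both ends. Normal replicate 2 had 6 UMIs in 36 cells, and food-deprived replicate 3 had none, where 3 UMIs would have been 22.1 CPM; normal replicate 1 also had none, with a limit of 40.1 CPM. The group means, 17.1 ± 32.8 CPM (SD, n = 5) and 24.4 ± 22.4 CPM (SD, n = 3), lie closer together than the fitted fold change, which weighs the deep mice of batches 1 and 2 most. There 84 and 105 UMIs in the food-deprived mice stood against 7 and 5 in the normal mice, a log2 difference of 2.93 in batch 1 and 3.41 in batch 2, with separate libraries in both. Without normal replicate 2 the gene fell under the filter on low counts and had no fitted value, and in DESeq2 its log2 fold change was 0.77.

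Micall1 was lower in the food-deprived mice. It stood at 106.9, 163.9, 170.5, 141.1 and 130.9 CPM in the normal mice and at 79.4, 78.2 and 73.8 CPM in the food-deprived mice (log2 -0.92 ± 0.22 SE). The 3 food-deprived mice lay close together and below every normal mouse. The log2 difference was -1.103 in batch 1 and -0.852 in batch 2, and the libraries were separate in both.

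Eml1 stood at 80.1, 126.1, 248.6, 182.4 and 99.1 CPM in the normal mice and at 99.3, 104.6 and 95.9 CPM in the food-deprived mice (log2 -0.70 ± 0.29 SE). The food-deprived mice were again close together, but they lay inside the range of the normal mice, above normal replicate 1 and next to normal replicate 5. The high values were those of the normal mice of batches 1 and 2, where the log2 differences were -1.32 and -0.80 with separate libraries. The libraries were separate in 12 of the 14 pairs of gene and batch, all but Gm15417 and Scrg1 in batch 1, and the genes were chosen for their difference in these batches.

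**Figure D2:**
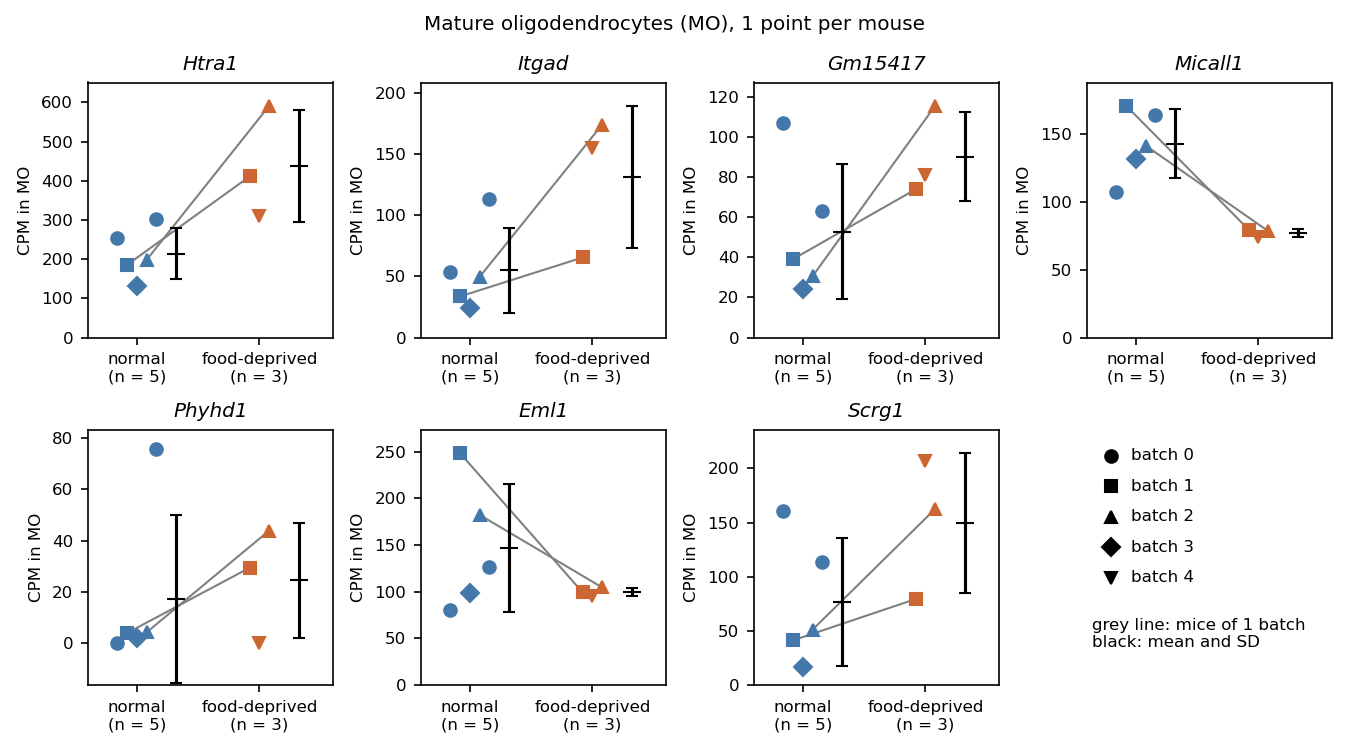
CPM in MO of each gene (vertical axis) by feeding state, 1 point per mouse, with the batch as the shape, grey lines joining the mice of batches 1 and 2, and the mean and SD in black. The lines slope up for 5 genes and down for Micall1 and Eml1, and the groups do not overlap for Htra1 (309.8 CPM or more against 302.5 CPM or less) and Micall1 (79.4 CPM or less against 106.9 CPM or more).

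Neuronal and pituitary markers differed with feeding state in the same MO cells, and blood markers did not separate the states. The 9 neuronal markers summed to 93.5 to 390.8 CPM in the normal mice and 501.4 to 619.5 CPM in the food-deprived mice, with no overlap, and Syt1, Rbfox3, Stmn2, Slc17a6, Gad1 and Slc32a1 were at 0 in normal replicate 1. The 5 pituitary markers summed to 0 to 9.90 CPM and 14.7 to 132.2 CPM, also with no overlap, and Prl and Gh were at 0 in every mouse. How often sums of as many other genes separate in this way was not tested. The 2 blood markers in the table (Beta-s and Alas2, of 5 listed) summed to 0 to 1904 CPM and 1194 to 7257 CPM, which overlap. In batch 1 the food-deprived mouse was higher, at 1305 against 39.6 CPM. In batch 2 the normal mouse was higher, at 1615 against 1194 CPM. The 7257 CPM are those of food-deprived replicate 3. Neuronal clusters held the 7 genes at a median of at most 14.2 CPM each. The part of these RNAs in the result was not tested.

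Markers of astrocytes, microglia and precursors were summed in MO, because these cells hold more Htra1, Phyhd1 or Scrg1 than MO does. The 7 astrocyte markers summed to 80.1 to 241.4 CPM in the normal and 154.9 to 260.1 CPM in the food-deprived mice. The 7 microglia markers summed to 0 to 38.5 CPM and 0 to 42.7 CPM, all 7 being at 0 in normal replicate 1 and in food-deprived replicate 3. The 7 OPC markers summed to 1090 to 2284 CPM and 1647 to 2124 CPM, with Pdgfra and C1ql1 at 0 in normal replicates 1 and 2, and Cspg4 and C1ql1 at 0 in normal replicate 5 and food-deprived replicate 3. Most of that sum was Olig1 and Olig2, which MO cells also hold. Over all MO cells they stood at 1466 and 157.8 CPM, against 1662 CPM for the 7 markers. The OPC sum is therefore no measure of precursor RNA in MO. In the 58.1% to 86.5% of the MO cells of each mouse that held no UMI of the astrocyte and microglia markers, Pdgfra, Cspg4 or C1ql1, the log2 fold changes were 1.12 ± 0.29 (SE) for Htra1, 1.62 ± 0.38 for Itgad, 1.53 ± 0.48 for Scrg1, 1.27 ± 0.30 for Gm15417, 2.08 ± 0.57 for Phyhd1, -0.95 ± 0.22 for Micall1 and -0.68 ± 0.30 for Eml1. These cells are a subset of those that chose the genes, and neuronal markers were not used to leave cells out.

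The share of MO cells with at least 1 UMI gives a view that a few cells with many UMIs cannot set. Each cell was thinned to 1000 UMIs, which left 3249 of the 3501 MO cells. Htra1 was found in 12.4% to 29.0% of the cells of the normal mice and in 32.8% to 44.3% of those of the food-deprived mice, without overlap. Micall1 was found in 9.09% to 19.4% and in 5.17% to 8.22%, also without overlap. Shares separated in this way for 1.92% of the genes tested with the food-deprived mice higher and for 1.03% with them lower. The shares of the other 5 genes overlapped between the groups. Their means over mice were 3.67% and 8.75% for Itgad, 5.33% and 9.19% for Scrg1, 4.17% and 7.06% for Gm15417, 1.51% and 2.48% for Phyhd1, and 11.3% and 7.60% for Eml1, normal first. With cells not thinned the shares of Htra1 were 18.5% to 41.7% and 42.6% to 70.4%, and those of Micall1 overlapped at 17.27% to 31.96% and 9.84% to 17.96%. Thinned to 1500 UMIs, the shares of all 7 genes overlapped.

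Free RNA in the droplets can add to such shares, and neurons, where the genes are low over most clusters, are given beside MO. They are not empty of these genes: Htra1 was found in 12 of 15 cells of the cluster Glu10, Gm15417 in 8 of 21 cells of Glu2 and Eml1 in 25.4% of the cells of Glu4. At 1000 UMIs, 1.26% of 2150 neurons had a UMI of Htra1 against 29.5% of MO cells, and 0.0465% had one of Itgad against 7.02%. For Phyhd1 the shares were 0.419% and 2.31%, for Scrg1 0.465% and 6.19%, for Gm15417 1.16% and 5.79%, for Micall1 0.651% and 9.85%, and for Eml1 1.77% and 11.7%. Before thinning the median was 4291.5 UMIs in these neurons and 2310 in the MO cells, so thinning removed more from the neurons. Without thinning the shares in 2297 neurons and 3501 MO cells were 3.96% and 48.7% for Htra1 and 0.305% and 14.5% for Itgad. They were 1.35% and 4.97% for Phyhd1, 1.78% and 14.0% for Scrg1, and 5.92% and 13.7% for Gm15417. For Micall1 they were 5.57% and 21.4%, and for Eml1 8.97% and 23.7%. The part of free RNA in these shares was not tested. The UMIs per positive MO cell, unthinned and over all mice of a state, were 1.51 in the normal and 2.11 in the food-deprived mice for Htra1, 1.35 and 1.57 for Itgad, 1.41 and 1.24 for Micall1, and 1.00 and 1.22 for Phyhd1. All 19 Phyhd1-positive MO cells of the normal mice held a single UMI, and 80.0% of the 155 positive cells of the food-deprived mice did.

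**Figure D3:**
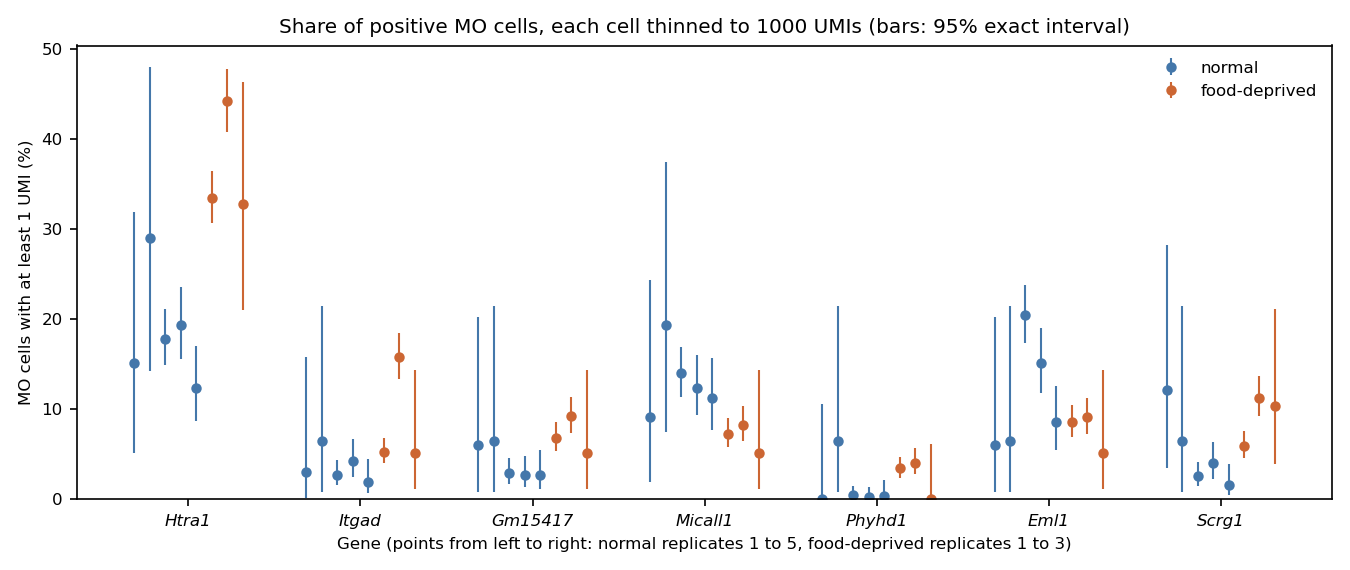
Share of MO cells with at least 1 UMI (%, vertical axis) for each gene and mouse after thinning each cell to 1000 UMIs, with 95% exact binomial intervals that cover counting error only. The food-deprived mice lie above all normal mice for Htra1 (32.8% or more against 29.0% or less) and below them for Micall1 (8.22% or less against 9.09% or more), and the intervals are widest in the mice with few MO cells.

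In the batch-held fit the difference between the states rests on batches 1 and 2. The other mice, 3 normal and 1 food-deprived, entered its filter and its estimate of the spread, so they are not independent of the choice of genes. State and batch cannot be told apart in them, and the spread of the lone food-deprived mouse is taken to be that of the normal mice. Their edgeR log2 fold changes were 0.55 ± 0.48 (SE) for Htra1, 1.61 ± 0.75 for Itgad, 1.59 ± 0.67 for Scrg1, 0.57 ± 1.08 for Gm15417, -0.85 ± 0.60 for Micall1 and -0.08 ± 0.61 for Eml1. None of the 6 passed (adjusted p = 0.9999 for each in edgeR's quasi-likelihood test), and Itgad and Scrg1 had an unadjusted p under 0.05. Phyhd1 had too few UMIs for the test. Of all 2823 genes tested there, edgeR called 0 (0.0%) and 53 had an unadjusted p under 0.05, and DESeq2 called 0. Without normal replicate 1, 2 or 5 in turn edgeR called 4, 1 and 9 genes, none of the 7 among them, and Eml1 stood at 0.01 without normal replicate 2. In simulated counts of these mice 40.4% of the 4-fold changes and 6.98% of the 2-fold changes were called, so changes of the sizes seen for these genes were mostly not detectable at this depth.

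In the other classes, whose cells were not used to choose the genes, no gene of the 7 passed in edgeR or DESeq2. Across 10 classes (neurons as a whole, GABA and Glu among them), 31 pairs of gene and class had enough UMIs for edgeR's quasi-likelihood test, and 0 were called, with the lowest adjusted p at 0.978. In 4 pairs the unadjusted p was under 0.05, and DESeq2 called 0. The share of all genes called with state as the only term was 0.0% in each of these classes. Itgad had too few UMIs for a test outside MO.

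Htra1 in Astro, its highest class, stood at 775.1, 1140 and 551.0 CPM in normal replicates 3 to 5 and at 1586, 1776 and 781.2 CPM in the food-deprived mice, which overlap (log2 0.76 ± 0.35 SE, edgeR adjusted p = 0.999). In batches 1 and 2 the food-deprived mouse was higher than the normal one, at 1586 against 775.1 CPM and at 1776 against 1140 CPM. With the batch held constant the log2 fold change was 0.85 ± 0.22 (edgeR adjusted p = 0.470, with 0.0% of all genes called), and the direction was that of MO. In OPC, Htra1 stood at 377.7, 345.8, 250.5 and 241.4 CPM in normal replicates 2 to 5 and at 309.2, 513.8 and 362.8 CPM in the food-deprived mice, which overlap (log2 0.45 ± 0.22 SE, edgeR adjusted p = 0.9996). In Glu, the glutamatergic neurons, it was low and stood at 24.2, 27.0 and 11.5 CPM in the normal and 8.5, 12.2 and 1.8 CPM in the food-deprived mice (log2 -1.26 ± 0.49 SE, edgeR adjusted p = 0.9997). Whether the change in one class differs from that in another was not tested.

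Scrg1 in OPC, its highest class, stood at 897.1, 1119.7, 1168.9 and 1083.5 CPM in normal replicates 2 to 5 and at 1142.6, 1340.4 and 1335.9 CPM in the food-deprived mice (log2 0.24 ± 0.17 SE, edgeR adjusted p = 0.9996). The groups overlapped only through food-deprived replicate 1. Its log2 fold change was -0.14 ± 0.25 in IMO and 0.42 ± 0.30 in Astro, and neither passed. Phyhd1 in Micro stood at 286.0, 262.7 and 214.5 CPM in the normal and 256.3 and 215.4 CPM in the food-deprived mice, which lay inside the normal range (log2 -0.05 ± 0.34 SE). It was at 0.36 ± 0.41 in Astro and 0.82 ± 0.41 in Tany, where food-deprived replicate 3 was the highest of 6 mice at 86.3 CPM.

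Gm15417 had a log2 fold change of 0.94 ± 0.41 (SE) in all neurons and 1.10 ± 0.50 in GABA, the inhibitory neurons (edgeR adjusted p = 0.9998 in GABA), at 4.7 to 15.7 CPM in 4 normal and 9.6 to 28.5 CPM in 3 food-deprived mice in GABA, groups that overlap. In Astro, where it is nearly as high as in MO, it stood at -0.01 ± 0.57, and at 0.38 ± 0.39 with the batch held constant. The 2 genes that were lower in MO had log2 fold changes of -0.26 ± 0.41 (Micall1) and -0.48 ± 0.39 (Eml1) in OPC, and Eml1 stood at -0.60 ± 0.65 in IMO. None of these passed.

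**Figure D4:**
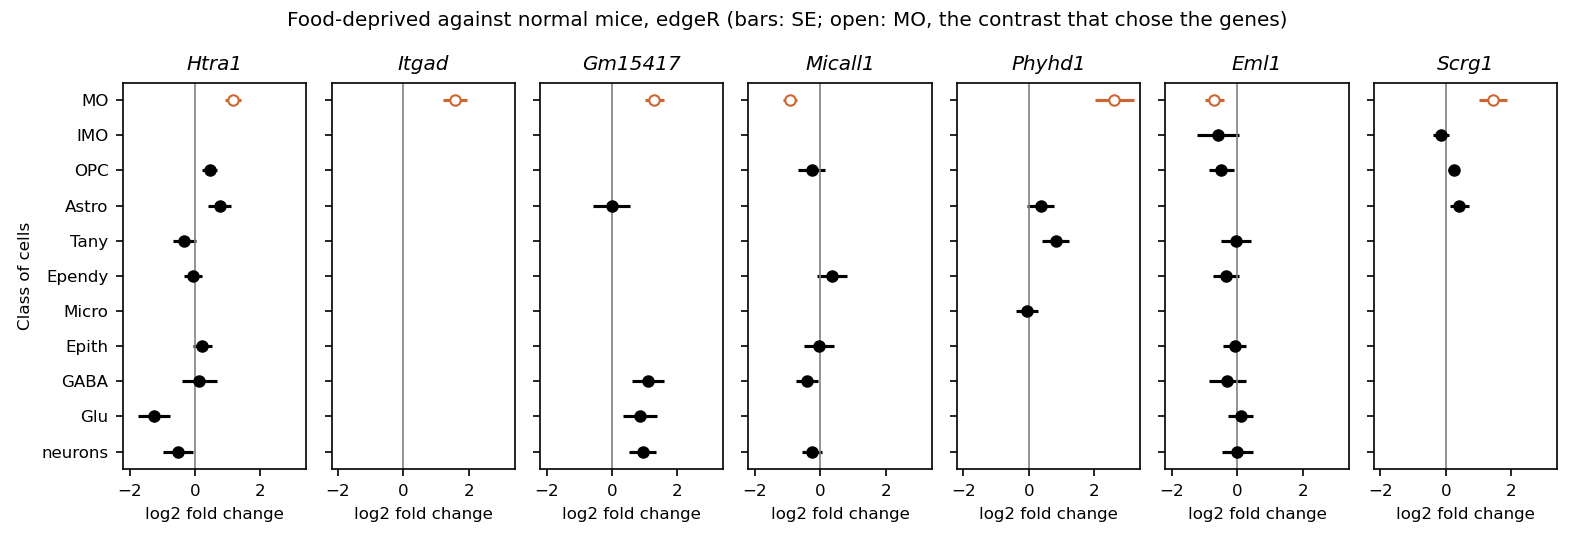
Fitted log2 fold change, food-deprived against normal, with its SE (horizontal axis) for each gene in every class with enough UMIs (rows), with MO, the contrast that chose the genes, as open circles. Htra1 lies above 0 in MO (1.15), Astro (0.76) and OPC (0.45) and below it in Glu (-1.26), and Itgad has a value in MO alone.

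Some of the 7 genes share exon bases with other genes in GENCODE M21, and whether the counting used the strand is not given in the sources used here. Gm15417 shares 116 exon bases with Zbtb7b, which lies on the opposite strand and encodes a transcription factor. Zbtb7b stood at 66.8, 63.0, 22.0, 28.9 and 13.1 CPM in MO of the normal mice. In the food-deprived mice it stood at 33.6, 43.1 and 29.5 CPM (log2 0.52 ± 0.31 SE, and 0.57 with the batch held constant). Normal replicates 1 and 2 were the highest of the normal mice, as for Gm15417. The food-deprived mice lay inside the normal range, as did food-deprived replicates 1 and 3 for Gm15417. Within batch 1 and within batch 2 the food-deprived mouse was higher than the normal one for both genes. Reads that lie within the shared bases cannot be assigned to 1 of the 2 genes without strand, and the values of Gm15417 are uncertain to that extent. Micall1 shares 2229 exon bases with 1700088E04Rik, on the opposite strand, which had 35 UMIs in MO against 996 of Micall1. Phyhd1 lies within Gm28035, a same-strand gene model that is not used here and shares 1249 exon bases with it. Phyhd1 also shares 94 exon bases with Gm28038, another same-strand gene model that is not among the genes counted. Itgad and Eml1 share exon bases with opposite-strand genes, and those of them that were counted had at most 36 UMIs in MO. Itgad also shares 102 exon bases with the opposite-strand gene Gm39091, and others with the pseudogene Gm17831, neither of which is among the genes counted. Htra1 and Scrg1 share none.

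The families and pathways of these genes were followed in MO with lists chosen with earlier results of these data known. Of 90 list genes tested, edgeR called 0 with state as the only term, as it called none of all genes, and 6 with the batch held constant, where 0.201% of all genes were called. Of the 6, Htra1, Itgad, Micall1, Phyhd1 and Eml1 had been chosen in that fit, and the other was Plin4. Among the HtrA proteases, Htra3 and Htra2 stood at log2 0.34 ± 0.29 (SE) and 0.23 ± 0.32, beside 1.15 for Htra1, and Htra4 had almost no UMIs. Of 14 TGF-beta genes 4 were tested, with a median of 0.27 against a median of -0.0046 over all genes, and of 0.13 with the batch held constant. The 4 were the receptor Tgfbr1 (0.34 ± 0.32 SE), the ligand Tgfb3 (0.50 ± 0.39), the signal carrier Smad2 (0.19 ± 0.39) and Smad7, an inhibitor of the pathway (-0.38 ± 0.25).

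Of 26 integrin chains 5 were tested, 2 above 0 and 3 below, with a median of -0.14. The most abundant were Itgb1 (205.5 ± 54.0 and 169.2 ± 33.3 CPM) and Itgb4 (197.1 ± 36.6 and 186.0 ± 15.0 CPM), normal first, whose groups lay within each other's spread, and Itgav stood at log2 0.03 ± 0.28. Micall1 was the only one of 6 MICAL genes with enough UMIs. Of its 18 listed endocytic partners 16 were tested, 8 above and 8 below 0 (median -0.015), among them Rab10 at -0.09 ± 0.21 and Rab11a at -0.12 ± 0.27. In the alpha oxidation list 3 of 8 were above 0 and 5 below (median -0.056), and Phyh, the phytanic acid enzyme itself, stood at 0.11 ± 0.23.

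All 6 EML genes were tested, 4 above 0 and 2 below (median 0.10), with Eml2 at 0.14 ± 0.28 and Eml3 at 0.14 ± 0.26 beside -0.70 for Eml1. Of 14 tested microtubule genes 5 were above 0 and 9 below (median -0.073), and Tuba1a stood at -0.04 ± 0.19. The 15 myelin genes, 6 above 0 and 9 below, had a median of -0.075, with Mbp at -0.08 ± 0.17 and Mag at -0.25 ± 0.20. Of 18 tested glucocorticoid-induced genes 17 were above 0, with a median of 0.44, falling to 0.20 with the batch held constant. In that list Mt1, a metallothionein, stood at 1754 ± 444 and 3008 ± 538 CPM (log2 0.78 ± 0.20 SE), Plin4, a lipid droplet coat gene, at 2.38 ± 0.57, and Sgk1, a kinase of salt balance, at 0.48 ± 0.37. None of them passed with state as the only term.

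The genes whose levels ran most alike over the 33 named clusters with at least 30 cells differed from member to member. Likeness is Pearson's r of log2(CPM + 1) among 11840 genes with at least 200 UMIs, over clusters that share libraries and differ in depth, and it is a description. Itgad ran most like Tnni1 (r = 0.90), Mog (0.84), a myelin surface protein, and Adamts4 (0.82), a matrix protease. Scrg1 ran most like Olig1 (0.92), Olig2 (0.91) and Sox8 (0.89), transcription factors of the oligodendrocyte lineage. Htra1 ran most like Zcchc24 (0.84), Fgfr3 (0.84), a growth factor receptor of astrocytes, and Kcnj10 (0.83), a glial potassium channel.

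Phyhd1 ran most like Dapp1 (0.80), Notch2 (0.79) and Cst3 (0.78), which encodes the protease inhibitor cystatin C. Micall1 ran most like Itgb4 (0.71), an integrin chain, Lpar1 (0.65), a receptor for lysophosphatidic acid, and 4933413G19Rik (0.64). Gm15417 ran most like D4Ertd22e (0.75), Zbtb7b (0.65), its opposite-strand neighbour, and Sat1 (0.65). Eml1 had the loosest neighbours, Ube2g1 (0.67), Gatad1 (0.64) and Pigq (0.62). With a pseudocount of 10 CPM, 10 of these 21 genes remained among the top 3.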

How the data were processed

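Drop-seq counts of 17 libraries from 8 mice were used. The deposited tables give, for each library, the UMI count of every gene in every barcode, as whole numbers that the authors left unscaled. Reads were placed on mm9, per the submitters' processing notes. Not given in the sources used here: the aligner, the gene annotation, and whether counting used the strand. Cluster names are the authors' deposited annotation. Annotated cells were joined to libraries by barcode, batch and state, and their counts equalled the deposited merged table for all 23284 genes. Of the joined cells 1355 had a barcode ending in N, and 202 of these matched another cell of their library with 1 base deleted; they were kept. No doublet caller was run.

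The members and gene lists were chosen with earlier results of these data known. UMIs were summed per mouse and class, since the mouse is the replicate. Mouse numbers were given in accession order. A mouse entered the fit of a class when it had 20 cells of it or more. The fits used edgeR 4.0.16 (R 4.3.3; TMM, filterByExpr, quasi-likelihood F test, two-sided, Benjamini-Hochberg adjustment over all genes tested, threshold 0.05). TMM factors in MO ran from 0.939 to 1.05. SE is the log2 fold change divided by the square root of F. DESeq2 1.42.0, other scaling, filters, library kinds and each mouse left out were alternatives. The labels place batches 1 and 2 in both states, so batch was also fitted as a replicate block. CPM use plain totals, with no pseudocount. Shares have 95% exact (Clopper-Pearson) binomial intervals, and a count of 0 is read as at most 3 UMIs; both cover counting error only. Tests were tried on simulated counts: with state as the only term 53.7% of 2-fold and 99.0% of 4-fold changes were called (7740 genes), and with the block 3.03% and 74.5% (7666 genes). Unchanged genes called numbered 21 with state as the only term and 8 with the block. In the simulated mice outside batches 1 and 2 some unchanged genes were called too. The simulated spread came from the fit with state as the only term, and batches were not simulated. Named genes were the 7 members, for each the 3 most alike genes, from each list at most 4 genes with the highest mean CPM in MO and any that passed, and Plin4 and Mt1. One gene that this rule selects is not reported here.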

Additional observations from a re-analysis of the deposited data

Results flagged for a closer look

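Phyhd1 in MO of normal replicate 2 stood at 75.6 CPM, from 6 UMIs, far above the other 4 normal mice, the next of which had 4.13 CPM. The share of its MO cells with a Phyhd1 UMI at 1000 UMIs per cell was 6.45% (2 cells), with the next normal mouse at 0.482%. Both are 1 mouse far from the rest of its group by Dixon's ratio. Groups of fewer than 4 mice were not examined, so all groups examined were of normal mice, the food-deprived mice being 3. Among the 34 groups of mice examined in this way these 2, which rest on the same cells, stood out. Chance alone flags about 1 group in 20. The cause was not tested.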

How the results depend on the processing

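In MO the log2 fold changes of the 7 genes moved by less than 1 SD between mice in all 116 alternatives, and no sign changed. Over these they ran from 0.83 to 1.35 for Htra1, 1.03 to 1.99 for Itgad, 0.77 to 1.496 for Gm15417, 1.09 to 1.81 for Scrg1, 0.77 to 3.25 for Phyhd1, -1.002 to -0.84 for Micall1 and -1.097 to -0.44 for Eml1. The SD of Phyhd1 is wide, with normal mice from 0 to 75.6 CPM, so its range of fold changes still lies under 1 SD. The alternatives reuse the mice that chose the genes and include the fit that did so, so stable signs are partly built in. Phyhd1 was lowest in DESeq2, and it fell under the filter, with no value, in high-Gapdh libraries alone, with a minimum of 50 cells and without normal replicate 2. The count of genes called in MO depended most on the settings. It was 0 with state as the only term, 16 with batch as replicate block, 3 in DESeq2 with that block (this setting and the marker-free MO cells were chosen after seeing the data), 1 in DESeq2, 22 with no filter on low counts, 37 in low-Gapdh libraries with the block, and 0 to 1 without each mouse in turn, the 1 being without food-deprived replicate 1. Outside batches 1 and 2 it was 0, 4 with no filter, and 1 to 9 without each normal mouse. Eml1 there ran from -0.19 to 0.014 over these, the latter without normal replicate 2. Batches 3 and 4 alone leave 1 mouse per state and allow no test. The number of genes whose shares did not overlap was 2, then 0 at 1500 UMIs per cell and 1 unthinned. List genes called in MO numbered 0, and 6 with the replicate block. In the other classes 0 pairs were called in any setting (lowest adjusted p 0.127, Htra1 in Astro, low-Gapdh libraries with the block). Of the pairs named above, signs turned for Gm15417 in Astro (0.38 with batch as replicate block, 0.37 in DESeq2 with that block, 0.036 with no filter, 0.13 in low-Gapdh libraries with the block, 0.147 with a minimum of 50 cells, -0.51 to 0.297 without each mouse), Phyhd1 in Micro (0.018 with no filter, -0.141 to 0.033 without each mouse), Scrg1 in IMO (-0.44 to 0.13 without each mouse) and Eml1 in IMO (-1.62 to 0.061 without each mouse), all within 1 SE of 0 with all mice. Some classes gave no fit for a setting, for want of mice or UMIs. The cause was not tested.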
